A study of Mus musculus with 2 samples.

Results

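The Id genes and the E protein genes encode helix-loop-helix (HLH) proteins that pair with each other. This account covers 7 of the 28592 genes in the table, taken by symbol: the 4 Id genes Id1, Id2, Id3 and Id4, and the 3 E protein genes Tcf3, Tcf4 and Tcf12. All 7 were present, each in 1 row. RNA was measured in 2 replicates of 1 group, E14TG2a mouse embryonic stem (ES) cells held in the ground state of pluripotency in 2i/LIF medium. E14TG2a is a male line that lacks a working Hprt gene. The medium holds inhibitors of MEK and GSK3 together with leukaemia inhibitory factor. The labels name no genetic change beyond the line itself and no second condition, so nothing here compares treatments, and no test between groups was possible. Whether each replicate was its own culture is not stated, and the replicate error given below may thus be that of the assay alone. Levels are given as FPKM (fragments per kilobase of transcript, relative to all mapped fragments), which can be set side by side between genes of different length.

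E proteins carry a basic region that binds the DNA sequence CANNTG, the E-box, and an HLH region through which they pair with themselves or with bHLH proteins of restricted tissues, such as those of muscle, neurons and blood. Id proteins have the HLH region but no basic region, so a pair of an Id protein and an E protein does not bind DNA. In ES cells, Id genes are known as targets of bone morphogenetic protein (BMP) signalling through Smad proteins, and Id proteins are known to hold back differentiation. The symbols need care: Tcf3 here is the gene of E2A and Tcf4 that of another E protein, whereas the Wnt effectors that older work called TCF3 and TCF4 are the genes Tcf7l1 and Tcf7l2.

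The sequences before the gene starts are shown because E-boxes are what E proteins bind and because Id genes with very different RNA levels can be read side by side. Windows before RefSeq start sites on GRCm38.p6 were read for 5 of the 7 genes. No start site was held for Id1, and Tcf4 was left out of this reading. The E-box matches given below therefore do not cover Id1 or Tcf4. The 250 bases before the start are printed 5′ to 3′ on the gene's strand, with CANNTG in capitals. They are chr13:48260866-48261115 (plus strand) for Id4, the Id gene with the most RNA, chr4:136143572-136143821 (plus) for Id3, chr12:25096093-25096342 (minus) for Id2, the one with the least, and chr10:80433636-80433885 (minus) for Tcf3, the E protein gene with the most RNA. The Tcf3 start used lies inside its RefSeq span, not at the outer end.
Id4: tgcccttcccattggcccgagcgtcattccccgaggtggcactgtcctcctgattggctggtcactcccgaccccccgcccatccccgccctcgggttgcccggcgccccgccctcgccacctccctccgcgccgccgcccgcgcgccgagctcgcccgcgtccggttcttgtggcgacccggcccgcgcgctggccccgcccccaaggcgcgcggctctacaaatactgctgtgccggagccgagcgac
Id3: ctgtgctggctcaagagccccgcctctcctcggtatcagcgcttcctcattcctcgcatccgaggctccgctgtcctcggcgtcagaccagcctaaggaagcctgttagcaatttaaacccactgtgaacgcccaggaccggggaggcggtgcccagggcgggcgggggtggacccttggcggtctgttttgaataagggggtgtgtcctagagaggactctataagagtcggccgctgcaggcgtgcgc
Id2: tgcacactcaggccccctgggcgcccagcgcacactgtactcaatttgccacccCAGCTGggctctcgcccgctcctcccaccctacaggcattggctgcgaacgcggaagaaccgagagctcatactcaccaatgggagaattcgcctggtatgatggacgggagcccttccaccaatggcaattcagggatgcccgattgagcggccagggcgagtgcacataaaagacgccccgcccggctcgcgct
Tcf3: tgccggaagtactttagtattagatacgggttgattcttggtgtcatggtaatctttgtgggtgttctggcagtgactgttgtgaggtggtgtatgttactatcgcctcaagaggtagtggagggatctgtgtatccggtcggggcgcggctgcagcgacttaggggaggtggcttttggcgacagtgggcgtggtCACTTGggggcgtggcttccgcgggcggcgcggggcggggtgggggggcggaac

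Id2 held 1 E-box, CAGCTG, starting 196 bases before the gene start, and Tcf3 held 1, CACTTG, starting at 54 bases. The windows of Id3 and Id4 held none. Tcf12, not printed, has 3 start sites on RefSeq, of which 1 window held CAGCTG, starting at 240 bases, 1 held CAAGTG, starting at 149 bases, and 1 held no E-box. Of all 32851 promoter windows of that length, 66.2% held CANNTG, which reads the same on both strands as a motif, and 13.0% held CAGCTG. The motif GGCGCC, known for BMP Smads and also its own reverse complement, was present once in Id4 and once in Id2, against 9.59% of all windows. CCAAT, counted on both strands, was found 2 times in Id4, 3 times in Id2 and not in Id3, against 33.8% of windows with at least 1. GGGCGG, on both strands, was found 5 times in Id4, 2 times in Id3, 1 time in Id2 and 3 times in Tcf3, against 32.7% of windows, and no match in these windows shared a base with GGCGCC. The Id4 window had 75.6% G and C, against 62.8% for both Id2 and Id3, 59.6% for Tcf3 and a median of 52.4% over all windows. These are matches of letters, not measured binding.

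Both families were transcribed, and 1 gene led each. Tcf3 had the highest level of the 7 and Id4 the next, while Id2 was the lowest. Detection was set at 1 FPKM or more in each replicate, which 6 of the 7 met, all but Id2. Among all genes 39.4% were detected, and among those that RefSeq types as protein-coding 50.6%.

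**Figure D1:**
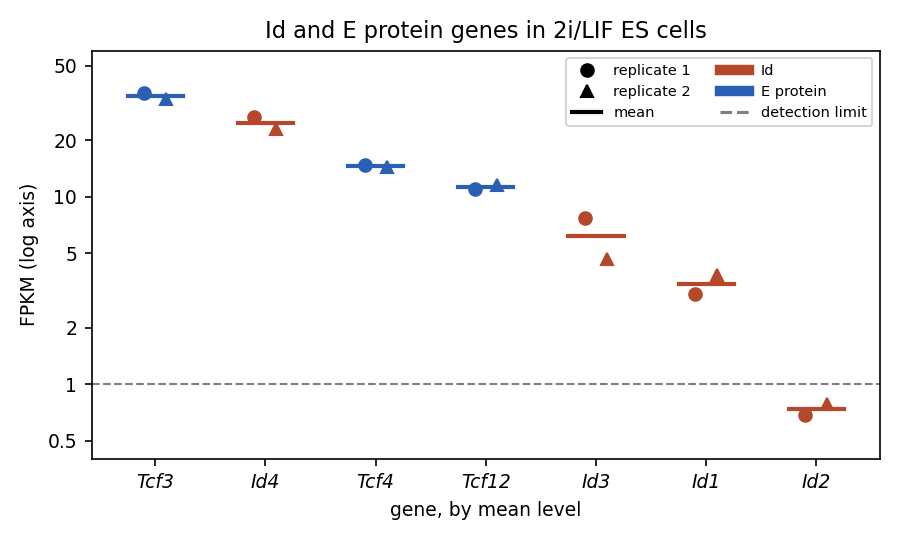
FPKM on a log axis of the 7 genes, ordered by mean level, with a circle for replicate 1, a triangle for replicate 2, a bar for their mean and a dashed line at an FPKM of 1. Tcf3 and Id4 stand highest, Id2 lies below the line in both replicates, and the replicates of Id3 lie furthest apart.

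Id4 (ENSMUSG00000021379.1, chromosome 13, 48261116 to 48266028) stood at an FPKM of 26.5 in replicate 1 and 23.0 in replicate 2, a mean of 24.7 ± 2.49 (SD, n = 2). Id4 is an Id protein best known from neural progenitors and from spermatogonial stem cells. Its mean exceeded that of 87.1% of all genes and of 67.2% of detected genes. Of the summed FPKM of the 4 Id genes, Id4 made up 69.9% in replicate 1 and 71.2% in replicate 2. The first 1508 bases of its span overlap A330033J07Rik, a lncRNA gene that starts inside Id4 on the opposite strand. That gene stood at 0.612 and 0.545, and whether reads were assigned by strand is not given in the sources used here.

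Id3 (ENSMUSG00000007872.3, chromosome 4, 136143822 to 136145392) stood at 7.70 in replicate 1 and 4.66 in replicate 2, a mean of 6.18 ± 2.15 (SD, n = 2). Id1 (ENSMUSG00000042745.9, chromosome 2, 152736251 to 152737410) stood at 3.05 and 3.83, a mean of 3.44 ± 0.554. Id1 and Id3 are the members most often used as readouts of BMP signalling. Both were below Id4 in each replicate, Id3 by 3.44-fold and 4.93-fold and Id1 by 8.70-fold and 5.999-fold in replicates 1 and 2. They overlapped neither with Id4 nor with each other.

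Id2 (ENSMUSG00000020644.8, chromosome 12, 25093799 to 25096092), known for its roles in lymphoid cells and in extra-embryonic tissue, stood at 0.684 and 0.782. It was the one member below the detection limit, although its mean of 0.733 ± 0.0691 exceeded that of 57.9% of all genes, many of which lie at or near 0. Id4 was 38.7-fold above it in replicate 1 and 29.4-fold in replicate 2. Id2 gave 1.80% and 2.43% of the summed Id FPKM, Id1 8.03% and 11.9%, and Id3 20.3% and 14.5%.

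Tcf3 (ENSMUSG00000020167.13, chromosome 10, 80409541 to 80433976) stood at 35.5 and 33.1, a mean of 34.3 ± 1.73 (SD, n = 2). Its protein E2A exists in splice forms that differ in the DNA-binding region, and the table holds 1 value for the gene, so they were not told apart. The mean exceeded that of 89.9% of all genes and of 74.5% of detected genes. Tcf3 made up 57.9% and 55.9% of the summed E protein FPKM in replicates 1 and 2.

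Tcf4 (ENSMUSG00000053477.14, chromosome 18, 69343429 to 69687967), known from plasmacytoid dendritic cells and from neurons, stood at 14.8 and 14.5, a mean of 14.7 ± 0.264. Tcf12 (ENSMUSG00000032228.15, chromosome 9, 71844252 to 72111893), known as HEB from T-cell and mesoderm development, stood at 11.02 and 11.60, a mean of 11.3 ± 0.413. Tcf3 was 2.39-fold and 2.29-fold above Tcf4 in replicates 1 and 2, and 3.23-fold and 2.85-fold above Tcf12. Tcf4 gave 24.2% and 24.5% of the summed E protein FPKM and Tcf12 17.9% and 19.6%. None of the 3 E protein genes was near the detection limit. The RefSeq spans of Tcf4 and Tcf12 hold 1 lncRNA gene and 2 pseudogenes respectively, which are not analysed here.

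The order by mean level was Tcf3, Id4, Tcf4, Tcf12, Id3, Id1 and Id2. Each gap was set beside the 95th percentile of the absolute log2 ratio between replicates among the 500 genes nearest in level, taking the larger of the neighbours' values. Tcf3 lay above Id4 by 0.47 on the log2 scale of mean FPKM, against a spread of 0.26. Id4 lay above Tcf4 by 0.75 (spread 0.31), Tcf12 above Id3 by 0.87 (spread 0.41) and Id1 above Id2 by 2.23 (spread 1.04), and each of these gaps exceeded its spread in both replicates. The other pairs kept their order in each replicate, and their mean gaps exceeded the spread. Read by single replicate, however, their gaps exceeded it in replicate 1 and not in replicate 2. Tcf4 and Tcf12 were 0.37 apart with a spread of 0.36, and 0.32 apart in replicate 2 alone. Id3 and Id1 were 0.85 apart with a spread of 0.56, 1.34 in replicate 1 and 0.28 in replicate 2. By the reading in each replicate, the order within these pairs is therefore not separated from the replicate error.

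Summed over the family, E protein RNA exceeded Id RNA. The 4 Id genes summed to an FPKM of 37.9 in replicate 1 and 32.2 in replicate 2, and the 3 E protein genes to 61.4 and 59.2. The sums did not overlap. The E protein sum was 1.62-fold and 1.83-fold the Id sum, which is a log2 ratio of Id over E protein of -0.79 ± 0.13 (SD, n = 2). Without Id4 the Id sum was 11.4 and 9.27, and the full E protein sum was then 5.37-fold and 6.38-fold higher. That leaves out the highest member of the Id family only. Without both Id4 and Tcf3, the E protein sum was 2.26-fold and 2.81-fold the Id sum in replicates 1 and 2. These are sums of RNA per length, and the proteins were not measured.

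**Figure D2:**
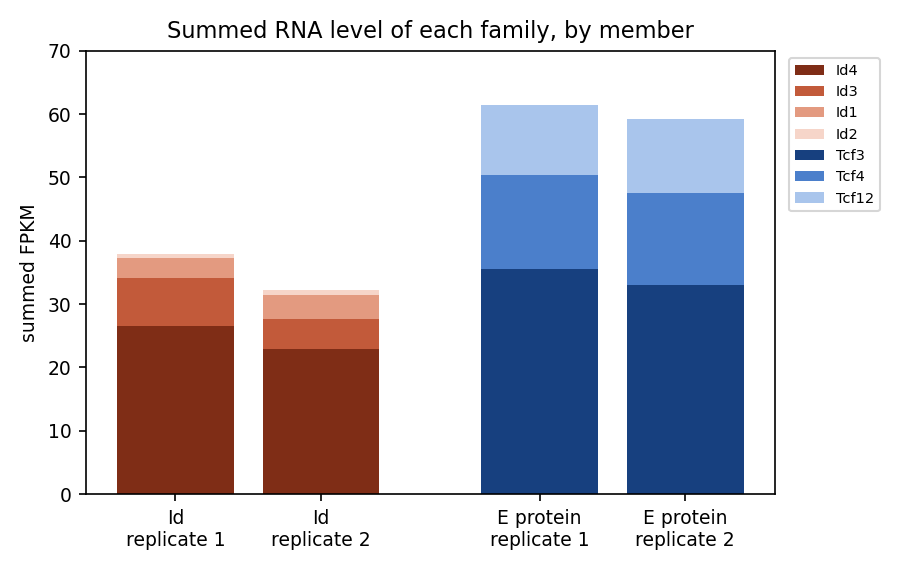
Summed FPKM (linear axis from 0) of the 4 Id genes and the 3 E protein genes in each replicate, stacked by gene. The Id bars reach 37.9 and 32.2 and consist mostly of Id4, and the E protein bars reach 61.4 and 59.2 with Tcf3 as the largest part.

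The replicates agreed for 6 of the 7 genes within the spread of genes of like level, and Id3 stood outside it. Its log2 ratio of replicate 2 to replicate 1 was -0.72, against a 95th percentile of 0.41 and a median of 0.11 in absolute value among the 500 nearest genes. Over all genes with a mean of 0.5 FPKM or more, 5.14% lay beyond their own 95th percentile, a share that follows from how the limit is defined. Id1 went the other way, with a log2 ratio of 0.33 inside its limit of 0.56. Id4 was at -0.21 (limit 0.26), Tcf3 at -0.10 (limit 0.23), Tcf4 at -0.04 (limit 0.31), Tcf12 at 0.07 (limit 0.36) and Id2 at 0.19 (limit 1.04). Id1, Id2 and Tcf12 were higher in replicate 2 and the other 4 in replicate 1.

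**Figure D3:**
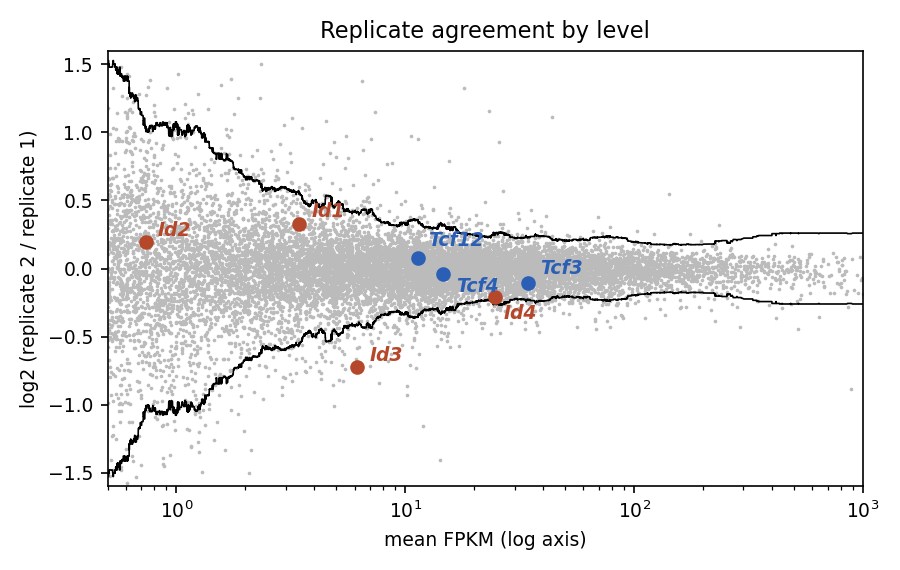
Log2 ratio of replicate 2 to replicate 1 against mean FPKM (log axis). Grey points are the genes with a mean of 0.5 FPKM or more (202 of 12806 fall outside the axes), black lines are the 95th percentile of the absolute ratio among the 500 nearest genes with either sign, and Id3, at -0.72, is the member below them.

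The same limit was passed by 3 of 69 other listed genes with a mean of 0.5 FPKM or more and a value above 0 in both replicates, or 4.35%, near the 5.14% over all genes. These 3, Smad6, Tcf15 and Ssbp4, were lower in replicate 2. The fibroblast marker S100a4 has no ratio, being listed at 0 in replicate 1, and was higher in replicate 2 (1.17). Smad6, an inhibitory Smad that BMP signalling induces, stood at 3.801 and 2.54, and passed its limit only narrowly (log2 ratio -0.581, limit 0.575). Tcf15, a bHLH partner of E proteins, stood at 5.38 and 3.53. The cofactor Ssbp4 stood at 19.2 and 14.7. Markers of fibroblasts, the usual feeder cells, moved in the other direction: of all 12 markers 11 were higher in replicate 2. Vim and Fn1, the only 2 detected, rose within their limits, with log2 ratios of 0.095 and 0.045 (limit 0.21 for each). The other 10, all below the detection limit, summed to 0.449 in replicate 1 and 4.54 in replicate 2. Col1a1 was at 0.0136 and 0.552, and Col1a2 at 0.0101 and 0.917. The part of such cells in the Id values was not tested. In bulk RNA, fewer cells of a type and less RNA per cell cannot be told apart. The ES identity itself was plain, with all 8 pluripotency markers detected, against 39.4% of all genes and 50.6% of protein-coding genes. By mean these ran from Klf4 at 13.6 and 11.4 to Pou5f1 at 1005 and 947. None of 8 primitive endoderm markers was detected. Of these last 8, 5 were higher in replicate 2 and 3 in replicate 1. The highest by mean, Hnf4a, stood at 0.234 and 0.552. Dab2 stood at 0.0426 and 0.406, and it alone among them had a ratio beyond its limit (log2 ratio 3.25, limit 2.23).

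E proteins work with bHLH partners of restricted tissues, and few of these were expressed. Of 47 such genes 3 were detected, or 6.38%, against 39.4% of all genes and 50.6% of protein-coding genes. In both replicates 15 were listed at 0. The list median was 0.0195, against 0.233 over all genes and 1.22 over protein-coding genes. Msc, the gene of musculin, a repressor in the muscle lineage, stood at 14.2 and 12.5 (mean 13.4 ± 1.21), between Tcf4 and Tcf12 by mean. Tcf15, known in ES cells as a factor that Id proteins hold back and that primes for differentiation, had a mean of 4.46 ± 1.31. Tcf24 stood at 1.31 and 1.39. The next were Scx, of the tendon lineage, at 0.280 and 0.504, Twist1, of mesoderm, at 0.350 in each replicate, and Ascl2, of trophoblast and intestinal stem cells, at 0.353 and 0.278.

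Of the 12 genes of the Hes, Hey and Bhlhe repressors, bHLH proteins that mostly act without E proteins, 4 were detected. This is 33.3%, below the 39.4% of all genes and the 50.6% of protein-coding genes. Hes1, a Notch effector that also represses neural genes, stood at 31.9 and 28.5 (mean 30.2 ± 2.36), between Tcf3 and Id4. Hes6 stood at 13.3 and 10.975, Bhlhe40 at 4.68 and 4.09 and Hey1 at 1.27 and 1.26. Of the other 8 the highest was Hey2, at 0.0665 and 0.166, and the list median was 0.0644.

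The BMP pathway is known to induce Id genes. Of its 34 listed genes 20 were detected, or 58.8%, against 50.6% of protein-coding genes, and the median over all 34 was 2.46, against 1.22 over protein-coding genes. Among ligands 3 of 9 were detected. Gdf3, a relative of BMPs that works with Nodal, stood at 63.7 and 62.9, Bmp4 at 3.42 and 3.08 and Bmp7 at 2.07 and 1.71. Among receptors 5 of 8 were detected, with the type I receptor Bmpr1a at 14.9 and 15.5 and its relative Acvr1 at 1.73 and 1.62. The receptor genes Acvr2b, Eng and Acvr2a lay between 2.68 and 4.095. The type II receptor Bmpr2 missed the limit in replicate 1 alone, at 0.977 and 1.43.

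All 4 Smads of the BMP branch were detected, against 50.6% of protein-coding genes. The shared partner Smad4 stood at 22.6 and 21.6, and the BMP-responsive Smad1 at 5.13 and 5.39 and Smad5 at 4.49 and 4.68. Smad9 was lowest, at 1.35 and 1.39. Of 13 inhibitors 8 were detected, led by the repressor Skil at 16.3 and 15.8, the ubiquitin ligase Smurf2 at 12.7 and 13.4 and Smad7 at 12.4 and 10.001, with Smurf1 at 5.86 and 6.45 and the activin antagonist Fst at 5.55 and 6.18. The secreted BMP antagonist Nog was listed at 0 in both replicates, and Chrd stood at 0.664 and 0.648.

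All 4 genes listed for the turnover of Id proteins were detected, against 50.6% of protein-coding genes. Usp1, which removes ubiquitin from Id proteins, stood at 56.2 and 57.0, above every one of the 7 genes, and its activator Wdr48 at 13.3 and 13.8. Cops5, a COP9 signalosome subunit known to bind Id proteins, stood at 59.8 and 63.7, and Fzr1, an activator of the anaphase-promoting complex, at 19.4 and 17.1. Of 15 cofactor genes 10 were detected, or 66.7%, against the same 50.6%. They were led by the adaptor Ldb1 at 56.9 and 53.8 and the acetyltransferase Kat2b at 41.8 and 44.9, followed by Ssbp4. The corepressor Cbfa2t2, known as a pluripotency factor that binds OCT4, stood at 14.1 and 14.8, whereas its relative Runx1t1 stood at 0.198 and 0.159.

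Genes known to respond to the balance of Id and E proteins in other cells were read next. Cdh1, the gene of E-cadherin, which E2A can repress, stood at 55.5 and 54.6, while Cdh2 (N-cadherin) stood at 0.527 and 0.708. The 5 inhibitors of cyclin-dependent kinases on the list, which is not the whole class, were all detected, against 50.6% of protein-coding genes. Cdkn1b was highest at 35.8 and 37.9, with Cdkn2a at 29.2 and 27.2, Cdkn1a at 13.3 and 13.9, Cdkn1c at 3.26 and 2.77 and Cdkn2b at 2.48 and 2.32. Cdkn2a encodes a pair of unrelated proteins from shared exons, which 1 value per gene does not separate.

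**Figure D4:**
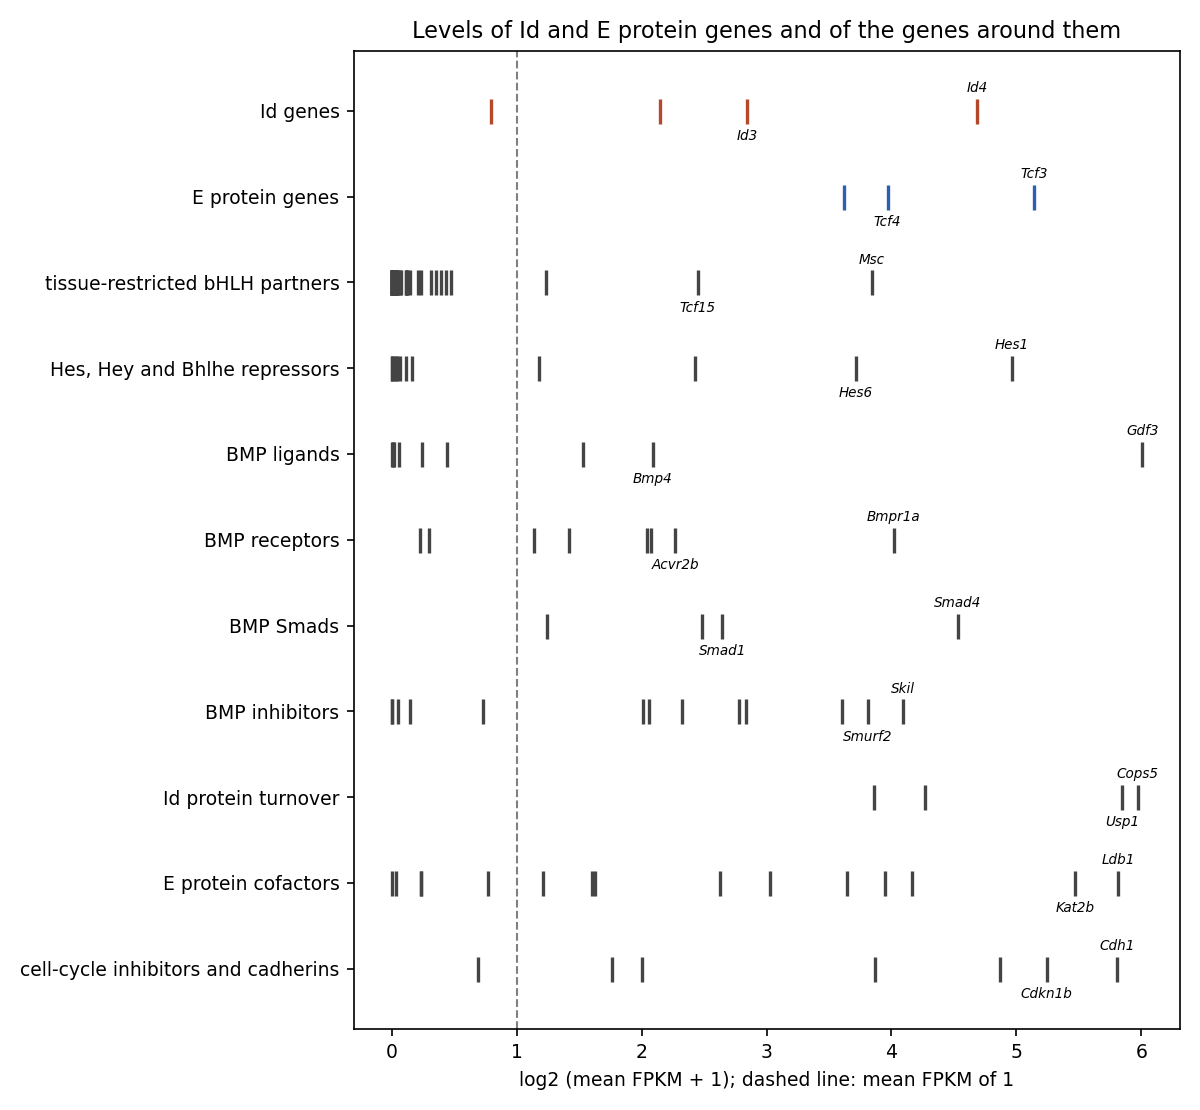
Mean level of each gene on the log2(FPKM + 1) scale, 1 tick per gene and 1 row per list, with the 2 highest of each list named and a dashed line at a mean FPKM of 1. Most of the 47 tissue-restricted bHLH partners crowd at 0, while the E protein genes, the Smads and the turnover genes lie to the right of the line.

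The genes with similar names were all lower than the E protein genes in each replicate, with Tcf7 the nearest to them. Tcf7l1 stood at 0.861 and 1.36, so Tcf3 was 41.3-fold above it in replicate 1 and 24.4-fold in replicate 2. Tcf7l2 stood at 0.669 and 0.557, and Tcf4 was 22.2-fold and 26.0-fold above it. Of these Wnt effectors only Tcf7 was detected, at 4.28 and 3.75, and Lef1 stood at 0.625 and 0.982. Rows were matched by Ensembl identifier, so the levels of Tcf3 and Tcf4 given here are those of the E protein genes.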

How the data were processed

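RNA from 2 replicates was sequenced as stranded total RNA after ribosomal RNA depletion, per the labels' protocols. The authors deposited 1 FPKM value per gene and replicate. They made these with TopHat2 and Cufflinks, with CASAVA also named, and the builds mm10 and GRCm38, per the submitters' processing notes. The sources used here give no versions, annotation release, strand use or filters. FPKM summed to 946498 and 928174, and the reads behind them are unknown, so no counting interval was computed. Cufflinks can write 0 where it could not estimate a level, so such genes are said to be listed at 0.

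Columns were assigned by name. Symbols were matched by Ensembl identifier for 28256 of 28592 genes, and spans, types and promoters came from RefSeq on GRCm38.p6. The 7 genes and the 14 further lists were chosen with earlier results of these data known. Genes were named from the members, the Wnt effectors with similar names, the 5 highest of each list and 9 set by name. Some list members are not reported here by name. Any other named gene was chosen after its values were seen. Genes of like pattern were not sought, since 2 replicates of 1 group hold none. The spread rule was tested on simulated data with the same noise at every level and only genes at a mean of 1 FPKM or more. Its change with level, and levels as low as that of Id2, were thus not tested. Alternatives covered detection limits of 0.1, 0.5, 5 and 10, pseudocounts of 1, 0.1 and 0.01, TPM, a filter on low members and leaving out a replicate. Python 3.11.15, numpy 2.4.6 and pandas 2.3.3 were used.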

Additional observations from a re-analysis of the deposited data

How the results depend on the processing

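The log2 ratio of the Id sum to the E protein sum, -0.79 from summed FPKM, stayed negative in every alternative run. As a difference of means over members it was -1.64 with log2(FPKM + 1), -1.97 with a pseudocount of 0.1 and -2.02 with 0.01. These are another measure than the ratio of sums. They take means over 4 Id genes and 3 E protein genes, and they weight Id2 as much as Id4. Only their sign can thus be set beside -0.79. The ratio of sums was -1.33 without Id4 and Tcf3. Leaving out a replicate gave -0.88 to -0.70. Of the 7 genes 7 were detected at limits of 0.1 and 0.5 and 4 at limits of 5 and 10, against 6 at 1. At a limit of 5 the counts fell from 3 to 1 for bHLH partners, from 4 to 2 for Hes, Hey and Bhlhe genes, from 3 to 1 for BMP ligands, from 5 to 1 for receptors, from 4 to 2 for Smads, from 8 to 5 for inhibitors, from 10 to 6 for cofactors and from 4 to 0 for lymphoid targets. The 4 Wnt effectors gave 1 at a limit of 1, 4 at 0.5, 0 at 5 and 2 without replicate 1. The share of all genes detected was computed at a limit of 1 only. Counts at the other limits therefore cannot be set against it. With 2 replicates every SD rests on 1 difference, and depth in reads is unknown. No paired analysis was possible because the series has 1 group.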

Other observations

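Genes that E proteins are known to switch on in lymphocytes had a low median. The share detected was close to that of all genes and below the 50.6% of protein-coding genes. Of 10 listed, 4 were detected (40.0%, against 39.4% of all genes): Vpreb1 and Igll1, which encode the surrogate light chain of the pre-B-cell receptor, at 2.20 and 2.87 and at 1.38 and 1.0004 in replicates 1 and 2, the receptor subunit Cd79b at 2.29 and 1.90, and the B-cell factor Ebf1 at 1.71 and 1.76. Pax5 stood at 0.297 and 0.120, and Rag1, Ptcra and Cd79a were listed at 0 in both replicates. The list median was 0.112, against 0.233 over all genes and 1.22 over protein-coding genes. Igll1 passed the detection limit only narrowly in replicate 2.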
